A study of Mus musculus with 7 samples.

Results

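Endothelial genes of the fetal liver were followed across whole livers of 3 Taf10 genotypes. The set held 36 genes out of 39017 in the count files: pan-endothelial, sinusoidal, arterial and tip-cell markers, with the receptors of vascular endothelial growth factor left out. The genes were chosen by name, and all 36 were found in the files and passed the filter on low counts. They fall into 8 roles. First are junction and adhesion proteins (5 genes), the angiopoietin and TIE system (4), other surface and secreted proteins (8) and signalling proteins (4). The rest are sinusoidal genes (6), SOXF transcription factors (3), the arterial Notch genes (3), and apelin with tip-cell genes (3).

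The study deleted Taf10, which encodes a subunit shared by the TFIID and SAGA transcription complexes, with a Cre named EpoCre that is driven from the erythropoietin receptor gene and acts in erythroid cells. All livers were from C57BL/6 embryos at E12.5, and RNA was sequenced from a single-cell suspension of each liver. The 2 TAF10KO libraries are titled lox on both alleles with EpoCre, while the series text gives one of these alleles as a knockout. The 3 TAF10HET libraries all carry EpoCre: replicate 1 is titled lox/wt, while replicates 2 and 3 are titled wt/ko. The 2 WT libraries have lox on both alleles and no Cre, so the comparison with WT also differs in Cre, and the comparison with TAF10HET does not. Every title also has 1 of 2 date-like codes. What is called the first date code here holds replicate 1 of every group, and the second holds TAF10KO replicate 2, TAF10HET replicates 2 and 3 and WT replicate 2. Allele type within TAF10HET and date code cannot be told apart.

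Endothelial cells line all vessels. In the fetal liver they form sinusoids, wide leaky capillaries between which blood cells develop, and sinusoidal cells carry scavenger receptors that clear waste from blood. Cadherin and immunoglobulin proteins hold the cells together, angiopoietins act through the TIE2 receptor to steady or loosen the vessel wall, and Notch signalling with the SOXF factors separates arteries from other vessels. Tip cells lead a growing sprout and express genes such as Esm1, Apln and Angpt2. Several of these genes are not confined to endothelium. Pecam1, Esam, Eng, Tek, Icam2, Cd93 and Emcn are also found on blood stem cells, progenitors or megakaryocytes, and Stab1, Lyve1 and Fcgr2b on macrophages. In these whole-liver libraries, fewer cells of a type and less RNA per cell cannot be told apart.

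Reads assigned to genes numbered 18008391 to 43401474 per library. Taf10 stood at 37.8 and 43.9 CPM in TAF10KO livers, 78.1, 63.7 and 63.0 CPM in TAF10HET livers, and 72.0 and 96.5 CPM in WT livers, a TAF10KO difference from WT of -1.04 (SE 0.168, adjusted p = 0.0542). On the first principal component lay 63.2% of all variance. The biological coefficient of variation was 13.4% with the date code as a term and 33.9% without it. Genes were tested with the date code as a term beside genotype, and "rose" and "fell" mean an adjusted p under 0.05 in that fit over 15800 genes (edgeR quasi-likelihood test, Benjamini-Hochberg adjustment). With genotype as the only term, 0 of all genes and 0 of the 36 were called between any 2 genotypes. CPM are counts scaled to library size (TMM), and differences are fitted log2 values. Levels are listed in replicate order, so the first value of each group is from the first date code and the rest are from the second. Xist was at 1.40 and 2.64 CPM in TAF10KO replicate 2 and TAF10HET replicate 1, against 1651 CPM or more in the other 5 libraries, so sex is not balanced over genotypes, and its part was not tested. Nothing in the labels says whether livers came from separate litters, and p-values measure only the spread between these libraries.

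Levels per length, in RPKM averaged over the 7 libraries, ranged from 16.8 for Oit3 down to 0.165 for Clec4g, with a median of 3.35 for the 36 genes and 3.81 for all tested genes. The sinusoidal genes were spread over this whole range. Oit3 and Lyve1 (14.5 RPKM) were first and second in the set, followed by Plvap (13.3), Cdh5 (10.7) and Egfl7 (10.4), while Fcgr2b (0.529) and Clec4g stood among the 4 lowest. Clec4g, the lectin LSECtin of mature sinusoids, rested on 1 to 22 reads per library. Hey1, at 0.446 RPKM, and Apln, at 0.383, were the others of these 4, while the transcription factor Sox18 stood at 3.37 RPKM. The gap between neighbours in this order was often within the spread over libraries: Oit3 ranged over 9.44 to 32.3 RPKM and Lyve1 over 4.96 to 23.9.

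**Figure D1:**
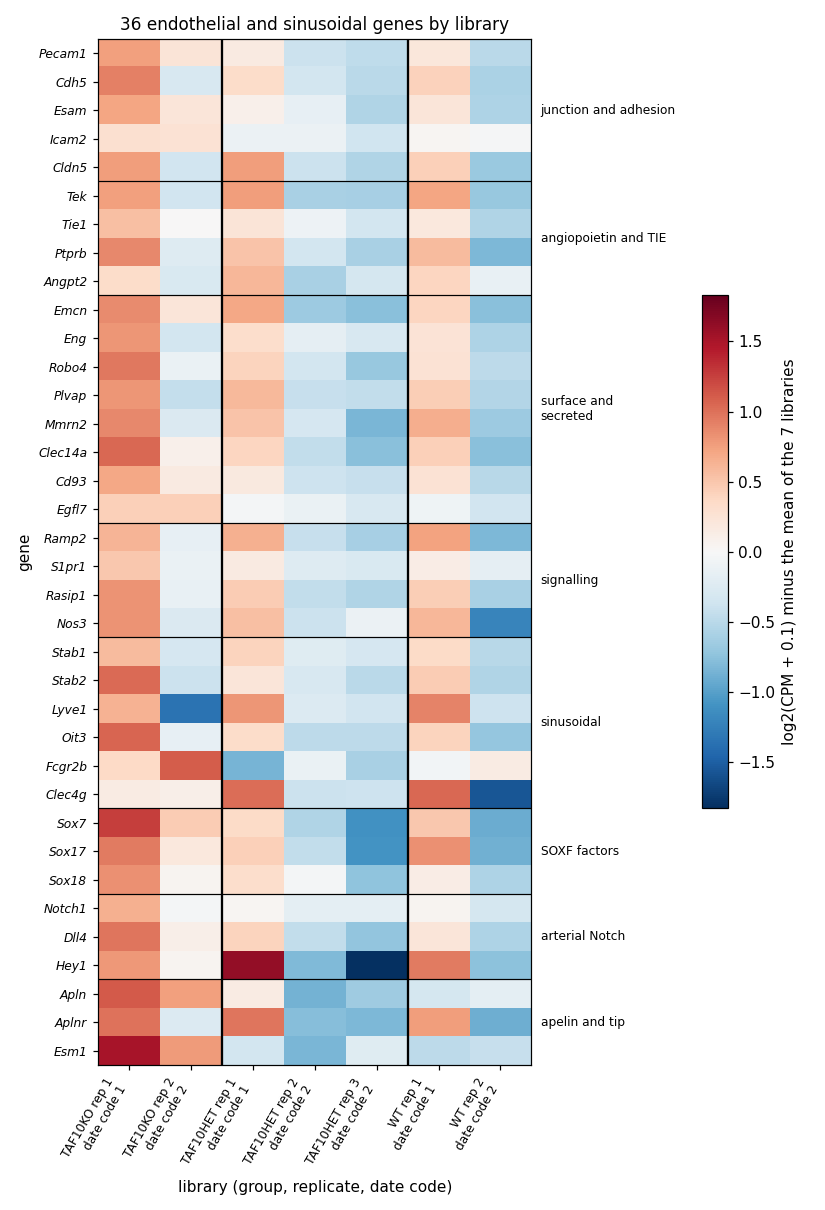
Level of each of the 36 genes (rows, grouped by role) in each of the 7 libraries (columns), as log2(CPM + 0.1) minus the gene's mean over the libraries. For most genes the 3 libraries of the first date code are redder than those of the second. Each TAF10KO library is redder than the WT library of its date code for 31 of the 36 genes. Lyve1 and Angpt2 are lower in TAF10KO on both date codes.

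In TAF10KO against WT, the endothelial genes lay higher, by a small amount. Of the 36 genes, 34 had a positive difference, and their median was 0.44, while over all tested genes 54.2% were positive and the median was 0.03. The median within the set was 0.40 on the first date code and 0.61 on the second, and 31 of the 36 genes were higher in TAF10KO on both. Only Pecam1 passed the test over all genes in this fit, so 1 of 36 rose and 0 fell, where 0.608% of all genes were called, 0.481% rising and 0.127% falling. At an unadjusted p under 0.05, 1550 of all 15800 tested genes were higher and 1280 were lower. Of the 36 endothelial genes, 22 were higher and 1, Lyve1, was lower at that threshold. These genes share cells and libraries, so their number is not a number of independent observations.

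Against TAF10HET, which also carries EpoCre, the genes of TAF10KO also lay mostly higher. Of the 36 genes, 33 were higher in TAF10KO with a median of 0.35, and over all tested genes 50.5% were higher with a median of 0.00. On both date codes 25 of the 36 were higher, and 9 of the 36 changed sign under some alternative setting, where 4 did so against WT. Pecam1, Cd93, Egfl7, Fcgr2b and Esm1 rose and 0 fell, where 1.61% of all genes were called, 1.15% rising and 0.456% falling. The comparisons with WT and with TAF10HET share the TAF10KO libraries. CPM in both TAF10KO libraries lay above both WT libraries for 6 of the 36 genes, against 15.2% of all tested genes, and above all TAF10HET libraries for 8, against 10.3% of all tested genes. None of the 36 lay wholly below WT or TAF10HET, where 14.5% and 9.77% of all tested genes did.

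TAF10HET and WT did not differ by the test in any of the 36 genes. The edgeR fit called 0, where 0.00633% of all genes were called, and DESeq2 called 0. At an unadjusted p under 0.05, 0 of the 36 were higher and 1 was lower, where 322 and 208 of 15800 tested genes were. The median difference was 0.07, with 29 of 36 positive where 52.7% of all genes were. Within date codes it was 0.01 on the first and 0.10 on the second. With genotype as the only term the median was -0.10. The TAF10HET libraries lay wholly below WT for 2 genes, Icam2 and Fcgr2b, and wholly above for 0, against 4.95% and 4.33% of all tested genes.

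**Figure D2:**
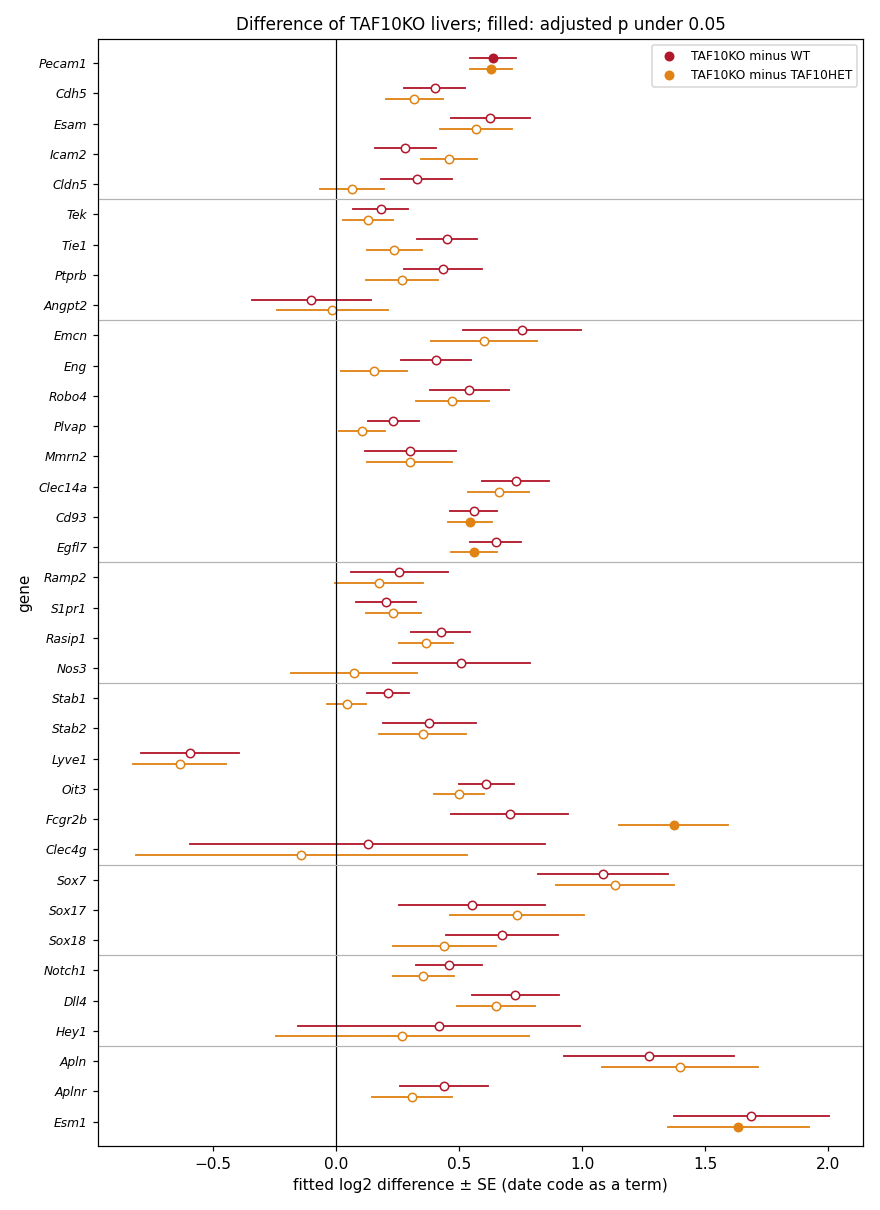
Fitted log2 difference of TAF10KO from WT and from TAF10HET for each gene, with its SE. Filled points passed an adjusted p of 0.05, which were Pecam1 against WT and Pecam1, Cd93, Egfl7, Fcgr2b and Esm1 against TAF10HET. Most open points lie right of 0, and Lyve1 lies left of it at -0.59 and -0.64.

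Among the junction and adhesion genes, 1 of 5 rose against WT and against TAF10HET, and all 5 differences were positive in both. Pecam1 (ENSMUSG00000020717, chromosome 11, 106654217 to 106750628), an adhesion molecule of endothelial junctions, stood at 47.9 and 33.8 CPM in TAF10KO livers, 31.9, 21.7 and 20.7 CPM in TAF10HET livers, and 32.9 and 20.3 CPM in WT livers. Both TAF10KO libraries exceeded their WT and TAF10HET counterparts of the same date code, and the ranges did not overlap. The difference from WT was 0.64 (SE 0.0943, adjusted p = 0.0438), with 0.54 and 0.73 on the first and second date codes, and that from TAF10HET was 0.63 (SE 0.0858, adjusted p = 0.0218). The call against WT ended on leaving out either WT library (adjusted p = 0.356 for replicate 1 and 0.727 for replicate 2) or either second-date TAF10HET library (0.099 for replicate 2 and 0.146 for replicate 3), and with non-robust dispersions (0.055), while the difference stayed between 0.54 and 0.71 over the 7 leave-outs. The call against TAF10HET ended without the same 4 libraries (0.083 to 0.125), and in a fit of only the groups compared (0.0885).

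The other junction genes missed the threshold. Cdh5, the VE-cadherin of adherens junctions, stood at 79.1 and 34.3 CPM in TAF10KO livers, 52.9, 33.3 and 29.8 CPM in TAF10HET livers, and 55.9 and 28.1 CPM in WT livers. Esam, an immunoglobulin-family adhesion molecule, stood at 25.3 and 17.9 CPM in TAF10KO livers, 16.3, 13.8 and 10.5 CPM in TAF10HET livers, and 18 and 10.4 CPM in WT livers. Both genes were highest in TAF10KO replicate 1, and TAF10KO replicate 2 was the highest of the second date code, narrowly so for Cdh5. Their differences from WT were 0.40 (SE 0.125, adjusted p = 0.176) and 0.63 (SE 0.159, adjusted p = 0.125). Icam2, a ligand of leukocyte integrins, stood at 17.5 and 17.2 CPM in TAF10KO livers, 13.2, 13.3 and 11 CPM in TAF10HET livers, and 14.6 and 14.0 CPM in WT livers. Both TAF10KO values of Icam2 were above all others, by 0.28 against WT (adjusted p = 0.294). Cldn5, a tight-junction claudin, differed by 0.33 from WT and 0.07 from TAF10HET.

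In the angiopoietin and TIE system, 0 of 4 genes were called between genotypes. Tie1, the orphan receptor that pairs with TIE2, stood at 43.4 and 29.8 CPM in TAF10KO livers, 35.1, 27.9 and 23.6 CPM in TAF10HET livers, and 34.0 and 20.2 CPM in WT livers. Tek, which encodes the TIE2 receptor, stood at 30.3 and 14.0 CPM in TAF10KO livers, 30.5, 11.8 and 11.8 CPM in TAF10HET livers, and 29.6 and 11.1 CPM in WT livers. Tek was alike in the 3 first-date libraries and slightly higher in TAF10KO replicate 2 than in the others of its date code. Differences from WT were 0.45 for Tie1 (adjusted p = 0.137) and 0.18 for Tek (adjusted p = 0.43). Ptprb, the phosphatase VE-PTP that acts on TIE2, stood at 17.0 and 7.81 CPM in TAF10KO livers, 13.2, 7.27 and 6.04 CPM in TAF10HET livers, and 13.8 and 5.15 CPM in WT livers, a difference from WT of 0.43 (adjusted p = 0.225). Angpt2, the TIE2 ligand made by endothelium, did not follow the rest: it ranged over 2.04 to 3.18 CPM in TAF10KO, 1.62 to 3.88 CPM in TAF10HET and 2.27 to 3.32 CPM in WT, with a difference from WT of -0.10 (SE 0.242, adjusted p = 0.864). The sign was positive on leaving out TAF10KO replicate 1 (0.03) or WT replicate 2 (0.07).

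The 8 other surface and secreted proteins all had positive differences from WT and from TAF10HET, and 8 of 8 were higher than WT on both date codes. Against TAF10HET 2 rose, Cd93 and Egfl7, and against WT 0 were called. Egfl7 (ENSMUSG00000026921, chromosome 2, 26580014 to 26593120), a secreted protein of the vessel matrix, stood at 49.4 and 49.6 CPM in TAF10KO livers, 35.8, 33.6 and 29.9 CPM in TAF10HET livers, and 34.6 and 28.8 CPM in WT livers. The TAF10KO replicates were nearly equal and stood above all 5 others. The difference was 0.65 (SE 0.104, adjusted p = 0.053) from WT and 0.56 (SE 0.0945, adjusted p = 0.0374) from TAF10HET. Cd93 (ENSMUSG00000027435, chromosome 2, 148436640 to 148443563), a lectin-like receptor, stood at 48.1 and 33.0 CPM in TAF10KO livers, 33.2, 22.6 and 21.9 CPM in TAF10HET livers, and 35.2 and 20.6 CPM in WT livers. Within each date code the TAF10KO library was the highest, with 0.45 and 0.67 against WT. The difference was 0.56 (SE 0.0969, adjusted p = 0.0588) from WT and 0.54 (SE 0.0885, adjusted p = 0.0343) from TAF10HET. Without TAF10KO replicate 2 the adjusted p against TAF10HET was 0.0595 for Cd93 and 0.0725 for Egfl7. Without WT replicate 1 it was 0.0993 and 0.131, without WT replicate 2 0.103 and 0.123, without TAF10HET replicate 2 0.12 and 0.113, and without TAF10HET replicate 3 0.173 and 0.181. In a fit of only the groups compared it was 0.102 and 0.129.

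Clec14a, another lectin-like receptor that binds the matrix protein multimerin 2, stood at 31.7 and 16.2 CPM in TAF10KO livers, 20.1, 11.2 and 8.91 CPM in TAF10HET livers, and 20.6 and 8.95 CPM in WT livers. It missed the threshold narrowly, at 0.73 (SE 0.136, adjusted p = 0.0671) against WT and 0.66 (SE 0.123, adjusted p = 0.0514) against TAF10HET. Emcn, the sialomucin endomucin of capillaries and veins, stood at 6.22 and 3.95 CPM in TAF10KO livers, 5.59, 2.09 and 1.94 CPM in TAF10HET livers, and 4.45 and 1.95 CPM in WT livers. Its difference from WT was 0.76 (SE 0.239, adjusted p = 0.179), with 0.48 on the first date code and 0.99 on the second. Eng, the TGF-beta co-receptor endoglin, stood at 60.8 and 27.6 CPM in TAF10KO livers, 43.4, 31.0 and 28.5 CPM in TAF10HET livers, and 41.3 and 23.5 CPM in WT livers. Robo4, a receptor of quiescent endothelium, stood at 18.1 and 8.54 CPM in TAF10KO livers, 12.4, 7.31 and 5.69 CPM in TAF10HET livers, and 11.2 and 6.63 CPM in WT livers. For Eng and Robo4 the gap between TAF10KO and WT was wider on the first date code (0.56 and 0.70) than on the second (0.23 and 0.36), which is the reverse of Emcn; none of these contrasts between date codes passed the test described with Lyve1. Plvap, which forms the diaphragms of fenestrae, stood at 43.1 and 18.2 CPM in TAF10KO livers, 37.1, 18.3 and 17.9 CPM in TAF10HET livers, and 33.6 and 17.0 CPM in WT livers. Its difference from WT was 0.23 (adjusted p = 0.287), and that of Mmrn2, multimerin 2, was 0.30 (adjusted p = 0.429).

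The signalling genes were all higher than WT, with 0 of 4 called. S1pr1, the receptor through which sphingosine 1-phosphate steadies vessels, stood at 19.6 and 12.7 CPM in TAF10KO livers, 15.6, 11.7 and 11.4 CPM in TAF10HET livers, and 15.3 and 12.4 CPM in WT livers. Rasip1, a Rap1 and Ras effector needed for vessel lumens, stood at 17.7 and 9.10 CPM in TAF10KO livers, 13.8, 7.23 and 6.74 CPM in TAF10HET livers, and 13.6 and 6.54 CPM in WT livers. TAF10KO was the highest of its date code for both genes, and on the second code S1pr1 of TAF10KO (12.7 CPM) barely exceeded WT (12.4 CPM). Differences from WT were 0.20 for S1pr1 and 0.42 for Rasip1 (adjusted p = 0.42 and 0.149). Nos3, the endothelial nitric oxide synthase, differed by 0.51 (adjusted p = 0.384), and Ramp2, the partner of the adrenomedullin receptor, by 0.26 (adjusted p = 0.528). In GENCODE M21 a Ramp2 transcript shares 1103 exonic bases with Vps25, and reads that fit several genes were set aside, so its level is uncertain. The Ramp2 difference was negative on leaving out TAF10KO replicate 2 (-0.06) or WT replicate 2 (-0.01).

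The sinusoidal genes differed in sign, with 5 of 6 higher and Lyve1 lower than WT. On both date codes 4 of the 6 were higher, and Clec4g, which had few reads, was not among these. Against TAF10HET, 1 of 6 rose, and against WT 0 were called. Oit3, a secreted liver protein of sinusoidal endothelium, stood at 90.0 and 38.6 CPM in TAF10KO livers, 54.2, 30.7 and 30.7 CPM in TAF10HET livers, and 56.8 and 26.3 CPM in WT livers. Stab2, a hyaluronan scavenger receptor, stood at 106 and 39.1 CPM in TAF10KO livers, 60.1, 42.2 and 36.6 CPM in TAF10HET livers, and 71.5 and 35.2 CPM in WT livers. Stab1, its paralogue, stood at 90.3 and 48.4 CPM in TAF10KO livers, 79.9, 51.5 and 48.7 CPM in TAF10HET livers, and 76.7 and 42.5 CPM in WT livers. For all 3 the TAF10KO library was highest on the first date code, and on the second Stab2 and Stab1 of TAF10KO lay within the range of the others. Differences from WT were 0.61 for Oit3 (adjusted p = 0.064), 0.38 for Stab2 (0.347) and 0.21 for Stab1 (0.256).

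Fcgr2b (ENSMUSG00000026656, chromosome 1, 170958617 to 170976547), the inhibitory Fc receptor, stood at 3.61 and 6.16 CPM in TAF10KO livers, 1.5, 2.55 and 1.82 CPM in TAF10HET livers, and 2.70 and 3.11 CPM in WT livers. Both TAF10KO values were above the others, and the 3 TAF10HET values were below both WT values. A filter of 5 CPM in 2 libraries left Fcgr2b untested. It rose against TAF10HET, by 1.37 (SE 0.221, adjusted p = 0.0333), and against WT the difference was 0.70 (SE 0.237, adjusted p = 0.198). TAF10HET differed from WT by -0.67 (adjusted p = 0.999). The call against TAF10HET ended without TAF10KO replicate 2 (adjusted p = 0.09), without either WT library (0.103 and 0.105), without TAF10HET replicate 2 or 3 (0.0845 and 0.153), and in a fit of only the groups compared (0.108). Fcgr2b and Clec4g both belong to mature sinusoids in the adult, and Clec4g, at 14 and 16 reads in TAF10KO, 15, 6 and 4 in TAF10HET and 22 and 1 in WT, was too sparse to give an order.

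Lyve1, the hyaluronan receptor of lymphatic vessels and sinusoids, was, with Angpt2, 1 of 2 genes of the set that were lower than WT on both date codes. Its levels were 57.6 and 14.5 CPM in TAF10KO livers, 64.9, 31.2 and 29.1 CPM in TAF10HET livers, and 69.8 and 28.6 CPM in WT livers. TAF10KO replicate 1 was the lowest of the first date code, and TAF10KO replicate 2 was the lowest of the 7. The difference was -0.59 (SE 0.200, adjusted p = 0.202) from WT and -0.64 (SE 0.190, adjusted p = 0.159) from TAF10HET. Without TAF10KO replicate 1 it was -1.04 from WT (adjusted p = 0.00177), and without TAF10KO replicate 2 it was -0.27 (0.158). Against TAF10HET it passed the threshold without TAF10KO replicate 1 (-1.03, adjusted p = 0.000954) or TAF10HET replicate 1 (-0.86, 0.047), and in DESeq2 (-0.65, 0.0192). With either TAF10KO library left out, the remaining one has no replicate and is assumed to vary like the other groups. A fit with the product of genotype and date code tested whether the TAF10KO difference from WT changed between date codes. It called 1 of the 36, Lyve1, at -0.71 for second minus first (adjusted p = 0.0455), and 1.15% of all tested genes. This fit has 1 residual degree of freedom, which comes from TAF10HET replicates 2 and 3. Of the TAF10KO and WT libraries, only TAF10KO replicate 2 had low Xist. Sex and date code therefore cannot be told apart in this contrast.

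Macrophage markers were lower beside Lyve1. Of 13 listed genes 12 were tested, 11 were lower in TAF10KO than in WT, the median was -0.44 (-0.36 and -0.53 on the first and second date codes), and 0 were called. Against TAF10HET 12 of 12 were lower and 1, C1qa, fell by 0.76 (SE 0.124, adjusted p = 0.0353). Their summed level was 296 and 165 CPM in TAF10KO, 363, 269 and 247 CPM in TAF10HET, and 382 and 229 CPM in WT. The scavenger receptor Marco stood at 7.33 and 1.63 CPM in TAF10KO livers, 20.2, 18.6 and 17.1 CPM in TAF10HET livers, and 17.8 and 13.0 CPM in WT livers. Cd5l, a protein secreted by liver macrophages, stood at 11.3 and 2.64 CPM in TAF10KO livers, 18.2, 21.0 and 15.4 CPM in TAF10HET livers, and 21.0 and 14.3 CPM in WT livers. Marco and Cd5l were lowest in TAF10KO replicate 2, as Lyve1 was, and were named after their values were seen. Over the 12 tested macrophage markers the differences from WT ranged from -1.95 to 0.085. The part of macrophages in the Lyve1 value was not tested.

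**Figure D3:**
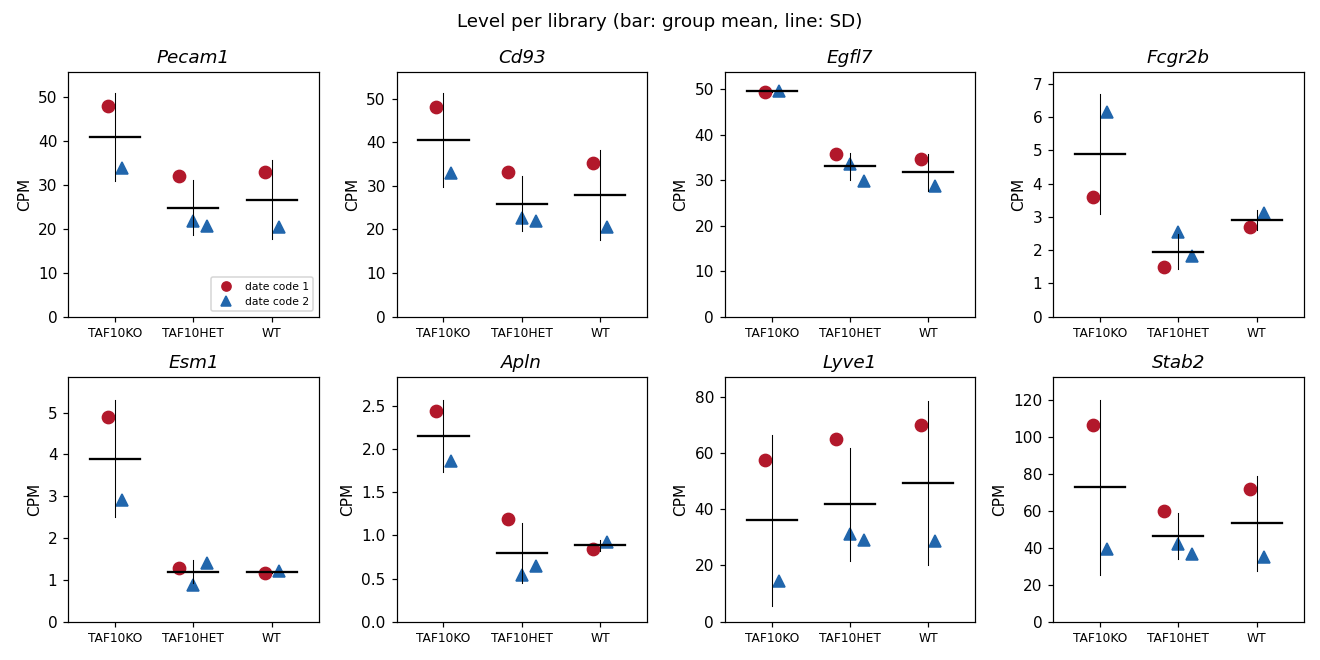
CPM of 8 genes in each library, with circles for the first date code and triangles for the second, group means as bars and SD as lines (n = 2, 3 and 2 in TAF10KO, TAF10HET and WT). Pecam1, Egfl7, Fcgr2b, Esm1 and Apln lie higher in both TAF10KO libraries than in any other, Cd93 and Stab2 overlap between groups, with the first date code above the second in each genotype, and Lyve1 is lowest in TAF10KO replicate 2.

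The SOXF transcription factors, which act with Notch in arteries and lymphatics, were all higher than WT and TAF10HET on both date codes, with 0 of 3 called. Sox7 stood at 5.57 and 3.17 CPM in TAF10KO livers, 2.90, 1.51 and 0.997 CPM in TAF10HET livers, and 3.21 and 1.16 CPM in WT livers. Sox18 stood at 9.29 and 5.31 CPM in TAF10KO livers, 6.47, 5.03 and 3.05 CPM in TAF10HET livers, and 5.65 and 3.43 CPM in WT livers. Sox7 was about level in TAF10KO replicate 2 and the first-date libraries of the other groups, and well above its own date code. Differences from WT were 1.08 (SE 0.264, adjusted p = 0.115) for Sox7 and 0.67 (SE 0.229, adjusted p = 0.201) for Sox18, and 0.55 for Sox17 (adjusted p = 0.374). Against TAF10HET, Sox7 differed by 1.13 (adjusted p = 0.0738).

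In the arterial Notch genes 0 of 3 were called. Notch1, the receptor, stood at 29.0 and 17.9 CPM in TAF10KO livers, 18.8, 16.2 and 16.2 CPM in TAF10HET livers, and 18.9 and 14.7 CPM in WT livers. Dll4, the Notch ligand of arteries and tip cells, stood at 8.39 and 4.57 CPM in TAF10KO livers, 5.64, 3.05 and 2.52 CPM in TAF10HET livers, and 4.96 and 2.83 CPM in WT livers. Both were highest in TAF10KO on each date code, with differences from WT of 0.46 (SE 0.134, adjusted p = 0.159) and 0.73 (SE 0.175, adjusted p = 0.112). Hey1, a transcriptional repressor induced by Notch, did not track its receptor and ligand: it was -0.16 against WT on the first date code and 0.83 on the second, and its fitted difference of 0.42 turned to -0.43 without TAF10KO replicate 2. Hey1 had 4 to 72 reads per library.

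The largest differences from WT were those of Esm1 and Apln, while Aplnr, of the same role, was at 0.44, close to the median of the set, and Angpt2, also a tip-cell gene, was at -0.10. Esm1 (ENSMUSG00000042379, chromosome 13, 113209659 to 113218098), endocan, a proteoglycan secreted by tip cells, stood at 4.89 and 2.92 CPM in TAF10KO livers, 1.29, 0.889 and 1.41 CPM in TAF10HET livers, and 1.17 and 1.21 CPM in WT livers. Both TAF10KO libraries were above all others, and the 5 others overlapped. A filter of 5 CPM in 2 libraries left Esm1 untested. The difference was 1.69 (SE 0.315, adjusted p = 0.0675) from WT, and it rose against TAF10HET by 1.63 (SE 0.286, adjusted p = 0.0422). On the first and second date codes it was 2.00 and 1.23 against WT. The call against TAF10HET ended without TAF10KO replicate 1 (adjusted p = 0.0519), TAF10HET replicate 1 (0.0501), 2 (0.147) or 3 (0.123), or WT replicate 1 (0.131) or 2 (0.132), and in a fit of only the groups compared (0.133). It held without TAF10KO replicate 2 (0.0297).

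Apln, the peptide ligand apelin of sprouting endothelium, stood at 2.44 and 1.86 CPM in TAF10KO livers, 1.19, 0.541 and 0.645 CPM in TAF10HET livers, and 0.838 and 0.928 CPM in WT livers. Its TAF10KO values were again above the rest, with 90 and 81 reads in TAF10KO against 11 to 23 in the others, and the difference was 1.27 (SE 0.346, adjusted p = 0.139) from WT and 1.40 (SE 0.316, adjusted p = 0.0847) from TAF10HET. Aplnr, the apelin receptor of veins and sprouts, stood at 12.4 and 5.19 CPM in TAF10KO livers, 12.3, 3.56 and 3.46 CPM in TAF10HET livers, and 10.5 and 3.29 CPM in WT livers. The difference from WT was 0.44 (adjusted p = 0.261), and the 3 first-date values were close.

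All differences above are relative to library sizes scaled by TMM, to which all cells of the liver contribute. Of 10 erythroid markers, 10 were lower in TAF10KO than in WT with a median of -0.27 (-0.10 and -0.41 on the first and second date codes) and 0 called. The summed level of the 36 endothelial genes was 1031 and 550 CPM in TAF10KO, 772, 488 and 443 CPM in TAF10HET, and 784 and 419 CPM in WT. Mesenchymal markers were higher than WT in 12 of 12, and 7 of these were higher on both date codes. Their median was 0.43, with 0.10 and 0.82 on the first and second date codes and 0 called. Hepatocyte markers were lower than WT in 10 of 12, with a median of -0.24 and 0 called. Megakaryocyte markers had a median of 0.26 with 11 of 12 higher and 0 called. They ranged from -0.05 to 0.58, with Vwf, named outside the rule for values, at 0.58 and the platelet factor Pf4 at 0.24. Stem and progenitor markers had a median of 0.03 over 10 genes, with 0 called.

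Against TAF10HET, where 5 of the 36 endothelial genes rose, megakaryocyte markers were higher in 12 of 12, with a median of 0.36 beside the 0.35 of the 36 genes, and 0 were called. At an unadjusted p under 0.05, 6 of the 12 were higher, where 1472 of all 15800 tested genes were. The summed level of the megakaryocyte markers was 728 and 919 CPM in TAF10KO, 606, 696.5 and 698.5 CPM in TAF10HET, and 698 and 654 CPM in WT. Erythroid markers were lower than TAF10HET in 10 of 10, with a median of -0.31 and 0 called. Hepatocyte markers had a median of 0.01 (6 of 12 higher), mesenchymal markers 0.08 (8 of 12) and stem and progenitor markers 0.06 (6 of 10), with 0 called in each. The parts of these cells in the endothelial values, Pecam1 and Cd93 among them, were not tested.

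To compare genes within the endothelial signal, each level was set against the mean log2 CPM of 20 other endothelial genes that are not in the set (a measure chosen after the values were seen, with no test). Those 20 were themselves higher than WT in 19 genes, with a median of 0.42 and 0 called, and 1, the tetraspanin Tspan18, rose against TAF10HET by 0.73 (SE 0.130, adjusted p = 0.0449). Among them Fli1, an ETS transcription factor also used by blood cells and the most abundant per length, stood at 0.22. On this scale the median of the 36 was 0.03 in TAF10KO minus WT, with 13 genes higher and 7 lower on both date codes. Esm1 remained apart, at 1.65 and 0.74 on the first and second date codes. Apln was at 1.11 and 0.46, and Sox7 at 0.43 and 0.91. Pecam1 was at 0.19 and 0.25, close to the 20 genes. On the other side lay Lyve1, at -0.63 and -1.47, and Angpt2, at -0.42 and -0.64.

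Sinusoidal genes outside the set had a smaller median, a contrast that was not tested. Of 10 such genes, 7 were higher than WT with a median of 0.16, and 0 were called. Gpr182, a scavenging receptor of sinusoids and the most abundant per length, stood at 0.08 (adjusted p = 0.777). Among 24 ligands, receptors and partners, 23 were tested, 19 were higher than WT with a median of 0.29, and 0 were called. The most abundant, the sphingosine 1-phosphate exporter Spns2, stood at 0.40 (adjusted p = 0.0893). The 23 genes ranged from -0.49 to 1.70, and those named next were picked outside the rule for values. Notch4, an endothelial Notch receptor, was at 0.92 (0.0588), and Adm, adrenomedullin, the ligand that acts through Calcrl with Ramp2, was at 1.32 (0.148). Calcrl was at 0.28 (0.234), and Angpt1, the activating TIE2 ligand, at -0.17 (0.573).

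More of the 36 genes passed the test between date codes than between genotypes. On the second date code 30 of 36 fell and 0 rose against the first, where 41.4% of all tested genes were called, 22.7% falling and 18.7% rising. Their median was -0.98, while that of all genes was 0.02, and it was -0.80 in TAF10KO, -0.93 in TAF10HET and -0.99 in WT. The libraries of the second date code lay wholly below those of the first for 28 of the 36, against 23.6% of all genes, and wholly above for 0, against 18.8%. The 6 genes not called were Icam2, Egfl7, Fcgr2b, Clec4g, Apln and Esm1. Fcgr2b was the only positive one, at 0.53 (SE 0.195, adjusted p = 0.0639).

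The largest falls among the called genes were -1.93 for Hey1 (adjusted p = 0.0119), -1.59 for Aplnr (0.00031), -1.43 for Lyve1 (0.000752) and -1.30 for Tek (0.000198). The smallest was -0.42 for Notch1 (0.0177). Tek, the gene with the smallest adjusted p, stood at 14.0, 11.8, 11.8 and 11.1 CPM on the second date code, against 30.3, 30.5 and 29.6 CPM on the first. No second-date library reached the level of a first-date library in that gene. The 4 sinusoidal genes Stab1, Stab2, Lyve1 and Oit3 fell by 0.80 to 1.43. Without WT replicate 1 or without WT replicate 2, 25 of the 30 calls were kept, and Esam, Angpt2, Sox18, Notch1 and Hey1 were lost. Without TAF10HET replicate 1 only Angpt2 was lost.

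Markers of other cells also differed between date codes. On the second code, 12 of 12 mesenchymal markers fell, with a median of -2.54, and Col1a1, a fibrillar collagen, stood at 81.5, 54.9, 54.5 and 46.4 CPM, against 508, 768 and 369.8 CPM on the first. Hepatocyte markers fell in 10 of 12 (median -0.48) and macrophage markers in 8 of 12 (-0.52). Erythroid markers rose in 9 of 10 (0.57). Among the ligands, receptors and partners 19 of 23 fell and 2 rose (median -1.30). Of these, Gja5 (-2.37), Jag1 (-2.64) and Unc5b (-2.71), named outside the rule for values, fell more than any of the 36. Of the 20 other endothelial genes 15 fell (median -0.87), and of the 10 other sinusoidal genes 7 (-0.88). What the date code stands for is not stated, and stage within the day, dissection and library preparation cannot be told apart.

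**Figure D4:**
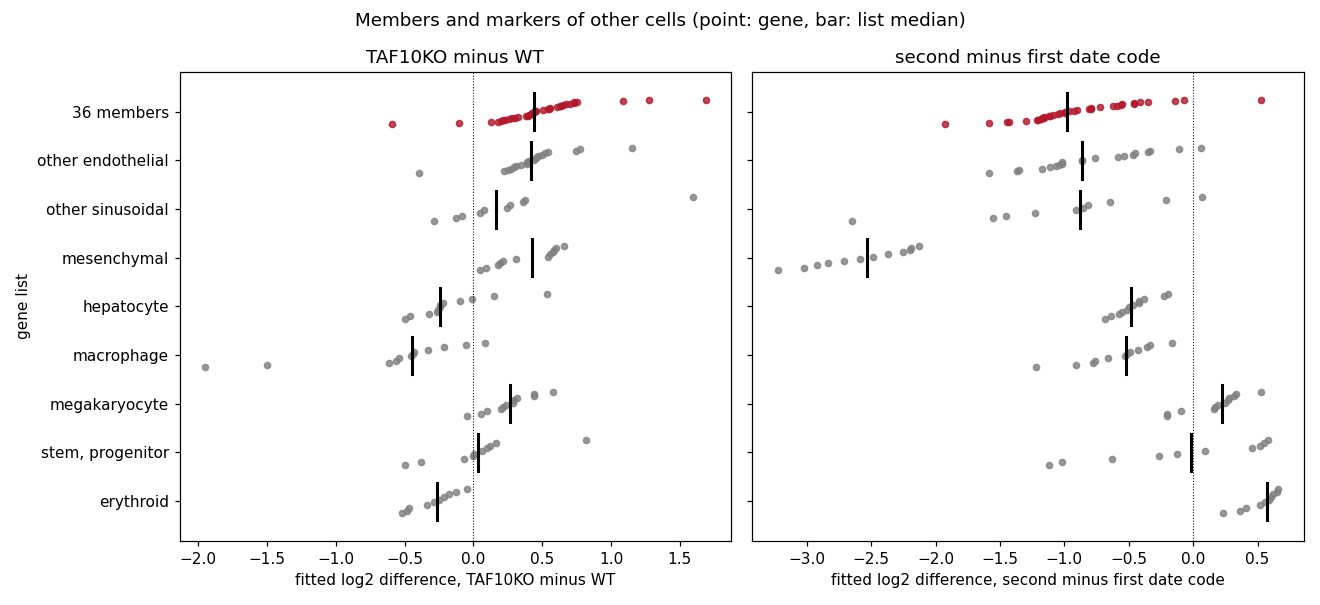
Fitted log2 difference of each gene (points) and list median (bars), for TAF10KO minus WT at left and for the second minus the first date code at right. The 36 genes (red) have a median of 0.44 at left and -0.98 at right, mesenchymal markers a median of -2.54 at right, and erythroid markers medians of -0.27 and 0.57.

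With date code taken out, the genes outside the set most like the mean of the 36 included Rab44, Usp30, Ripor2 and Epop. Their Pearson correlations were 0.992 to 0.997 over 7 libraries that share depth and scaling. They were picked as the highest among all tested genes outside the set, so high values follow in part from the choice. Rab44, the closest at 0.997, stood at 16.1 and 25.6 CPM in TAF10KO, 10.8, 17.7 and 15.6 CPM in TAF10HET, and 10.6 and 15.1 CPM in WT. It is higher on the second date code in each genotype, the opposite of most of the 36.

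Promoters of the set were read from RefSeq (GRCm38.p6), which held 19 starts for 17 of the 36 genes. Shown are the 250 bases before the start for 5 genes: those that rose against TAF10HET and are in the table (Egfl7, Fcgr2b and Esm1), Apln with its large difference, and the sinusoidal receptor Stab2, with matches to AGGAAG, a form of the ETS core that endothelial factors such as ERG and FLI1 bind, in capitals on either strand. Egfl7 has 3 starts in the table, of which the first is shown (chr2:26580833-26581082, plus strand). The others are Apln (chrX:48034854-48035103, minus strand), Stab2 (chr10:87007943-87008192, minus strand), Esm1 (chr13:113209409-113209658, plus strand) and Fcgr2b (chr1:170976072-170976321, minus strand).
Egfl7: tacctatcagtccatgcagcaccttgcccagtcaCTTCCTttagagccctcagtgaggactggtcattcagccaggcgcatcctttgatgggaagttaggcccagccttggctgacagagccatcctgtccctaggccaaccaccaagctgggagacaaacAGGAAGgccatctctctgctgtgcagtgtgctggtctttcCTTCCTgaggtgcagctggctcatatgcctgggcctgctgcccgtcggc
Apln: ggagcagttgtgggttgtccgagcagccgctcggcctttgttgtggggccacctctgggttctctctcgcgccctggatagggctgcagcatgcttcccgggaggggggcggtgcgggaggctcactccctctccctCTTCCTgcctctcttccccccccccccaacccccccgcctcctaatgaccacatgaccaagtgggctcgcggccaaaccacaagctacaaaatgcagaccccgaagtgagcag
Stab2: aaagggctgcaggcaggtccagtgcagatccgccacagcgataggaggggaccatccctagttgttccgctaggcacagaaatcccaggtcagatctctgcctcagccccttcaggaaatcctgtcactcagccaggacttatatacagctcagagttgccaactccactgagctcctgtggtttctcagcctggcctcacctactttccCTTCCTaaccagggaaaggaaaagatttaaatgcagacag
Esm1: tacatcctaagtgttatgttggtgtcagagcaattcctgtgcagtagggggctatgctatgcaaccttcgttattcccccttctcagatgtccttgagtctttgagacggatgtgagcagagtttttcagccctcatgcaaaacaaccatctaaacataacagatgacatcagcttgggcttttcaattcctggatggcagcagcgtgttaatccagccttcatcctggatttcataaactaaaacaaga
Fcgr2b: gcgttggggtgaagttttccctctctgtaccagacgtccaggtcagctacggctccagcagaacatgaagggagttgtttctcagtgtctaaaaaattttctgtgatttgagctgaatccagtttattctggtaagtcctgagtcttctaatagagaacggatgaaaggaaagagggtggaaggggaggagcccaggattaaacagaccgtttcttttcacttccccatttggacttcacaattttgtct

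AGGAAG or its reverse complement occurred in 10 of the 17 genes, in 11 of 19 starts (57.9%), against 29.5% of all 32851 promoters. The first start of Egfl7 held 3 matches, and Apln and Stab2 held 1 each. Esm1 and Fcgr2b, which have the largest rises against TAF10HET, held none in this window. Of the 4 other strings searched on both strands, the ETS form CCGGAA occurred in 0 of 19 starts (12% of all promoters), the SOX string ACAATG in 1 (10.7%), the hypoxia-response core ACGTG in 1 (16.6%) and the GATA string AGATAA in 0 (9.99%). AGGAAG and CCGGAA share the letters GGAA and differ in the base before them, so the same GGAA cannot count for both. A match is a description of sequence only.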

How the data were processed

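For each of the 7 libraries the authors deposited raw counts by Ensembl gene, not normalised. The submitters' processing notes name mm10, DESeq2 and TopHat2 2.0.8. No source used here gives the counting program, annotation release or strand setting. Ambiguous reads (3.98% to 5.94% of all) and multiply aligned reads (14.1% to 22.25%) were outside the gene counts. GENCODE M21, of the same build, gave symbols, positions and exon lengths (37693 of 39017 identifiers matched). RPKM are CPM per kilobase of merged exons. Exons shared with neighbours make Ramp2, Rasip1, Nos3, Notch1 and Egfl7 less certain. For Ramp2, Rasip1 and Egfl7 the neighbour with the most shared bases is on the same strand. For Nos3 and Notch1 the neighbours are on the other strand, where the unknown strand setting matters.

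Tests used R 4.3.3 and edgeR 4.0.16 (filterByExpr by group, TMM, robust quasi-likelihood F test, two-sided) on all 7 libraries with group and date code as terms, leaving 3 residual degrees of freedom. DESeq2 1.42.0 was an alternative. The SE is the fitted log2 difference divided by the square root of F. Log2 CPM within date codes used a prior count of 2. Deviations from group means correlated at 0.40 to 0.74 in 8 pairs of libraries of unlike group sharing a date code and at -0.74 to -0.40 in 8 pairs that did not; groups of 2 mirror by construction. In the 5 pairs of libraries within groups, a chi-square comparison of counts found differences beyond sampling noise. The test was also run on counts simulated from its own fit and design, which cannot show how it behaves where that fit is wrong. The genes, the lists, the date-code term and the rule for values were chosen with earlier results of these data known. By that rule, values in every library were given for 25 genes. These were the 20 called genes with the smallest adjusted p against WT and the 2 most abundant per role. Apln, Stab1 and Stab2 were added after their values were seen. In the other lists, where no gene was called against WT, the rule names only the most abundant gene per length. Of these most abundant genes, C1qb, Mllt3, Afp and Hbb-bs were not given values here. Vwf, Notch4, Adm, Calcrl, Angpt1, Gja5, Jag1, Unc5b, C1qa, Tspan18, Marco and Cd5l were named outside it. An item among the genes of like pattern is not reported here.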

Additional observations from a re-analysis of the deposited data

Results flagged for a closer look

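Lyve1 was singled out because its difference between TAF10KO and WT was not the same on the 2 date codes. It was -0.98 on the second and -0.28 on the first, and the fit with the product of genotype and date code gave -0.71 for second minus first (edgeR quasi-likelihood test, adjusted p = 0.0455, unadjusted p = 0.000469). The second date code holds 1 TAF10KO and 1 WT library, at 14.5 and 28.6 CPM, and the first holds 1 of each, at 57.6 and 69.8 CPM. Of these libraries only the second-date TAF10KO one had low Xist, so sex and date code cannot be told apart here. Unadjusted, 5 of the 36 genes passed 0.05 in that fit, and the share of all genes at that threshold was not counted. After adjustment over 15800 genes Lyve1 alone of the 36 passed, where 1.15% of all tested genes did. That fit has 1 residual degree of freedom. The cause was not tested.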

How the results depend on the processing

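The median log2 difference of the 36 genes kept its sign for TAF10KO against WT, TAF10KO against TAF10HET and the date codes under every alternative run. Leaving out 1 library in turn gave medians of 0.387 to 0.569, 0.328 to 0.429 and -1.02 to -0.926. Without the date term, a replicate block by date code, the medians were 0.43 for TAF10KO against WT, 0.526 for TAF10KO against TAF10HET and -0.102 for TAF10HET against WT, where the fit with the block gave 0.07 (0.042 to 0.122 over the leave-outs), and all calls between genotypes went to 0. The number of calls depended strongly on settings. Against WT, 96 of all genes and 1 of the 36 were called. DESeq2 gave 589 and 6, no filter 1399 and 18 higher with 1 lower, only the groups compared 553 and 9, non-robust dispersions 53 and 0, and a filter of 5 CPM 122 and 2. Leaving out 1 library gave 0 to 1282 of all genes, 0 to 11 of the 36 higher and 0 to 1 lower. Against TAF10HET, 254 and 5 were called. DESeq2 gave 690, with 8 higher and 1 lower, no filter 1498, with 16 higher and 1 lower, and only the groups compared 26 and 0. A filter of 5 CPM gave 253 and 4, where Clec14a was gained and Fcgr2b and Esm1 were left untested. Leave-outs gave 16 to 1203, 0 to 7 higher and 0 to 1 lower. For TAF10HET against WT 1 of all genes was called, and DESeq2 gave 9, no filter 289, fits of only the groups compared 7, globin genes left out or non-robust dispersions 0 each, and leave-outs 0 to 13, with 0 of the 36 in each. For the date codes, 6536 of all genes became 3206 to 7303 over the leave-outs, 25 to 32 of the 36 fell, and with no filter 1 of the 36, Fcgr2b, rose. Median-of-ratios and upper-quartile factors kept all 1, 5 and 30 calls on the 36. The cause of these changes was not tested. Without the date term the date comparison has no value, and only the groups compared does not apply to it. Where 1 library of a group of 2 is left out, the lone library is assumed to vary like the other groups. Clec4g, with 1 to 22 reads per library, and Hey1, with 4 to 72, rest on few reads.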
